A study of Homo sapiens with 24 samples.

Results

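The genes described here are 39 well-known interferon-induced genes that lie outside the IFIT family. They are given as a list of names, with no threshold on the signals. On the Affymetrix U133 Plus 2.0 array, 38 of them had at least 1 probe set annotated to that gene alone, of 19775 genes with such a probe set in all, and STAT2 was not analysed here. Where a gene had several probe sets, which was so for 19 members, the probe set with the highest mean log2 signal over the 24 arrays stood for it. The cells were MV4-11 and MOLM-14, acute myeloid leukemia cell lines that carry the internal tandem duplication of the receptor kinase FLT3 (FLT3-ITD). MV4-11 carries only the mutated allele, whereas MOLM-14 keeps a wild-type allele beside it. Each line received DMSO (the solvent control), ABT-869 (a FLT3 and receptor tyrosine kinase inhibitor, 3 nM), SAHA (a histone deacetylase inhibitor, 6 µM) or the combination for 24 hours, with 3 arrays in each of the 8 groups. The methods do not say again which doses were combined. The study describes the triplicates as biological, and each genetic background is 1 cell line, so the p-values measure the spread between cultures of that line.

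Interferons are cytokines that cells release when they sense viral nucleic acid. Type I interferon binds the IFNAR1 and IFNAR2 receptor chains, and the JAK1 and TYK2 kinases then phosphorylate STAT proteins, which with IRF9 bind the interferon-stimulated response element in the promoters of their target genes. Interferon gamma acts through a different receptor and the gamma-activated site. The targets include sensors of double-stranded RNA, enzymes that degrade RNA, membrane proteins that block viral entry or release, the ubiquitin-like protein ISG15 with its enzymes, and IRF7, which raises interferon production itself. Myeloid cells express many of these genes at a basal level without added interferon.

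The promoters are shown first because they are what these genes are known to share. RefSeq promoters (GRCh38.p14, first listed start of each gene) were matched for 30 of the 38 measured members, and the 250 bases before the start were searched on both strands. The core of the response element (GAAANNGAAA) was present in 17 of 30 members (56.7%) and in 3.1% of 27305 promoters of all genes. The gamma-activated site (TTCNNNGAA) was present in 9 of 30 members (30%) and in 6.8% of all promoters, and 5 members held both. Of the members called in a comparison with DMSO (defined below), 5 of 8 with a promoter entry held the response element core, and of those not called 12 of 22 did. The gamma-activated site was in 4 of the 8 called and 5 of the 22 not called. A match describes the letters and is not a measured binding site. The 5 called members with the core are printed in the direction of transcription, 80 bases each, with the core in capitals. They come from chr1:27672241-27672320 on the minus strand for IFI6, chr11:313960-314039 on the plus strand for IFITM1, chr4:88457010-88457089 on the plus strand for HERC5, chr19:17405710-17405789 on the minus strand for BST2 and chr6:32853788-32853867 on the minus strand for TAP1.
IFI6: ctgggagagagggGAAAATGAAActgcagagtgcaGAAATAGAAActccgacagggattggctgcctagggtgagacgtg
IFITM1: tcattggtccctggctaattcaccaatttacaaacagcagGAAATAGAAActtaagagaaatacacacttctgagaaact
HERC5: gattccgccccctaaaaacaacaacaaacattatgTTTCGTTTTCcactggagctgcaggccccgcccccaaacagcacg
BST2: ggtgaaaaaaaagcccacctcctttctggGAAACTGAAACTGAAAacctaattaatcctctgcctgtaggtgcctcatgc
TAP1: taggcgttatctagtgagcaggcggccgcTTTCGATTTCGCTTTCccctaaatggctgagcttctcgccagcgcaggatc
The BST2 and TAP1 windows each hold 2 overlapping cores, and the cores of TAP1 and HERC5 lie on the opposite strand. These 5 genes moved in different directions below: IFI6 and BST2 were called higher with SAHA or the combination, and IFITM1, HERC5 and TAP1 were called lower in MV4-11.

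Values are the authors' linear signals, with every array scaled to the same trimmed mean, and changes are differences of log2 signal with their standard error (SE) from limma. A gene was called at an adjusted p under 0.05 after Benjamini-Hochberg adjustment over 54613 probe sets. The median signal of an array lay between 61.3 and 99.6, and GAPDH gave nearly equal signals at its 3' and 5' ends (ratio 0.923 to 1.06). The same ratio for ACTB was 1.061 to 1.375, and was highest on combination replicate 3 of MV4-11. Deviations from the group mean over the brighter probe sets were over 0.3 (SD, log2) on 5 arrays, namely replicate 2 of ABT-869 and replicates 2 and 3 of the combination in MV4-11, with DMSO replicate 3 and combination replicate 1 of MOLM-14. The 6 genes listed as myeloid markers include PTPRC, which marks leukocytes in general (4197.3 or more). All 6 were measured well above the dim level of 32 on every array (LYZ at 10939 or more and FLT3 at 10511 or more). The dimmest reading was 428.8, for CSF1R. The summed signal was at most 458.0 for 2 B cell markers, 382.2 for 3 T cell markers, 288.6 for 2 erythroid markers and 76.6 for 3 epithelial markers, against at least 46106 for the 6 genes of the myeloid list. These sums run over unequal numbers of genes. In bulk RNA, fewer cells of a type and less RNA per cell cannot be told apart.

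Among the members, 12 of 38 were called in at least 1 comparison of a treatment with DMSO, and 26 were not called in any. That is 31.6% of the members, beside 21.0% of the 19775 genes and 15% of all probe sets. Probe sets include many dim ones, so the share of genes, each by its brightest probe set, is the closer match to the members. It is given with each count of calls over all members. No such share was computed for counts under other settings or at an unadjusted p. In MV4-11, the members called were mostly lower. The combination left 1 member higher and 7 lower (BST2 higher, and IRF7, IFITM1, USP18, HERC5, TAP1, XAF1 and IRF1 lower), where 4.89% of all probe sets were called higher and 4.05% lower, and 7.10% and 5.82% of genes. The share of members lower was 18.4%. SAHA left 1 higher and 5 lower (BST2 higher, and IRF7, XAF1, HERC5, IFI35 and IRF1 lower), against 1.47% and 0.996% of all probe sets and 2.45% and 1.52% of genes. With ABT-869 no member was called by limma, against 0.372% and 0.491% of all probe sets and 0.516% and 0.779% of genes. At an unadjusted limma p under 0.05, 3 members were higher and 9 lower. The share of all genes at that unadjusted level was not computed. The number of calls with ABT-869 depends on the setting. With a floor of 32, without dim probe sets, with limma-trend or in 1 fit over all arrays, 3 or 4 members were called lower. How many of all genes were called in those settings was not computed.

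In MOLM-14, the members called with SAHA were mostly higher. SAHA left 4 members higher and 1 lower (BST2, IFI6, GBP2 and IFITM2 higher, IRF7 lower), against 2.74% and 2.58% of all probe sets and 4.20% and 3.62% of genes. The members' shares were 10.5% and 2.63%. Called or not, 20 of the 38 members changed upward with SAHA and 18 downward, so the direction of the calls is not that of the members as a whole. The combination left 2 higher and 1 lower (BST2 and IFI6 higher, XAF1 lower), against 3.15% and 2.80% of all probe sets and 4.72% and 4.18% of genes. The members' shares, 5.26% and 2.63%, were near those of all genes. This count was 11 with a floor of 32, without dim probe sets or with limma-trend, and 0 with only the groups compared in the fit. The share of all genes called in those settings was not computed, so the counts have no background beside them. With ABT-869 no member was called by limma, against 0.00183% and 0.0146% of all probe sets and 0.00506% and 0.0152% of genes. At an unadjusted limma p under 0.05, 2 members were higher and 1 lower, with no share of all genes computed at that level. The comparisons within a line share their DMSO arrays, so the SAHA and combination values of a gene are not independent.

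The median change of the 38 members was −0.17 with ABT-869, −0.18 with SAHA and −0.25 with the combination in MV4-11. Beside this stood 0.05, −0.05 and −0.02 over all probe sets tested and 0.02, −0.05 and −0.05 over genes. In MOLM-14 the members' medians were 0.07, 0.09 and 0.01, beside 0.00, −0.14 and 0.03 over all probe sets and 0.01, −0.10 and 0.00 over genes. The scaling matters for these counts, since the median of all probe sets fell by 0.14 with SAHA in MOLM-14. With each array centred on its median, 10 members were higher and 1 lower with SAHA in MOLM-14, and 2 higher and 3 lower with the combination. In MV4-11 the same centring left 1 higher and 2 lower with SAHA and 1 higher and 3 lower with the combination. Quantile normalization left 2 higher and 2 lower with the combination in MOLM-14. The share of all genes called under these scalings was not computed, so these counts cannot be set beside the shares given above.

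**Figure D1:**
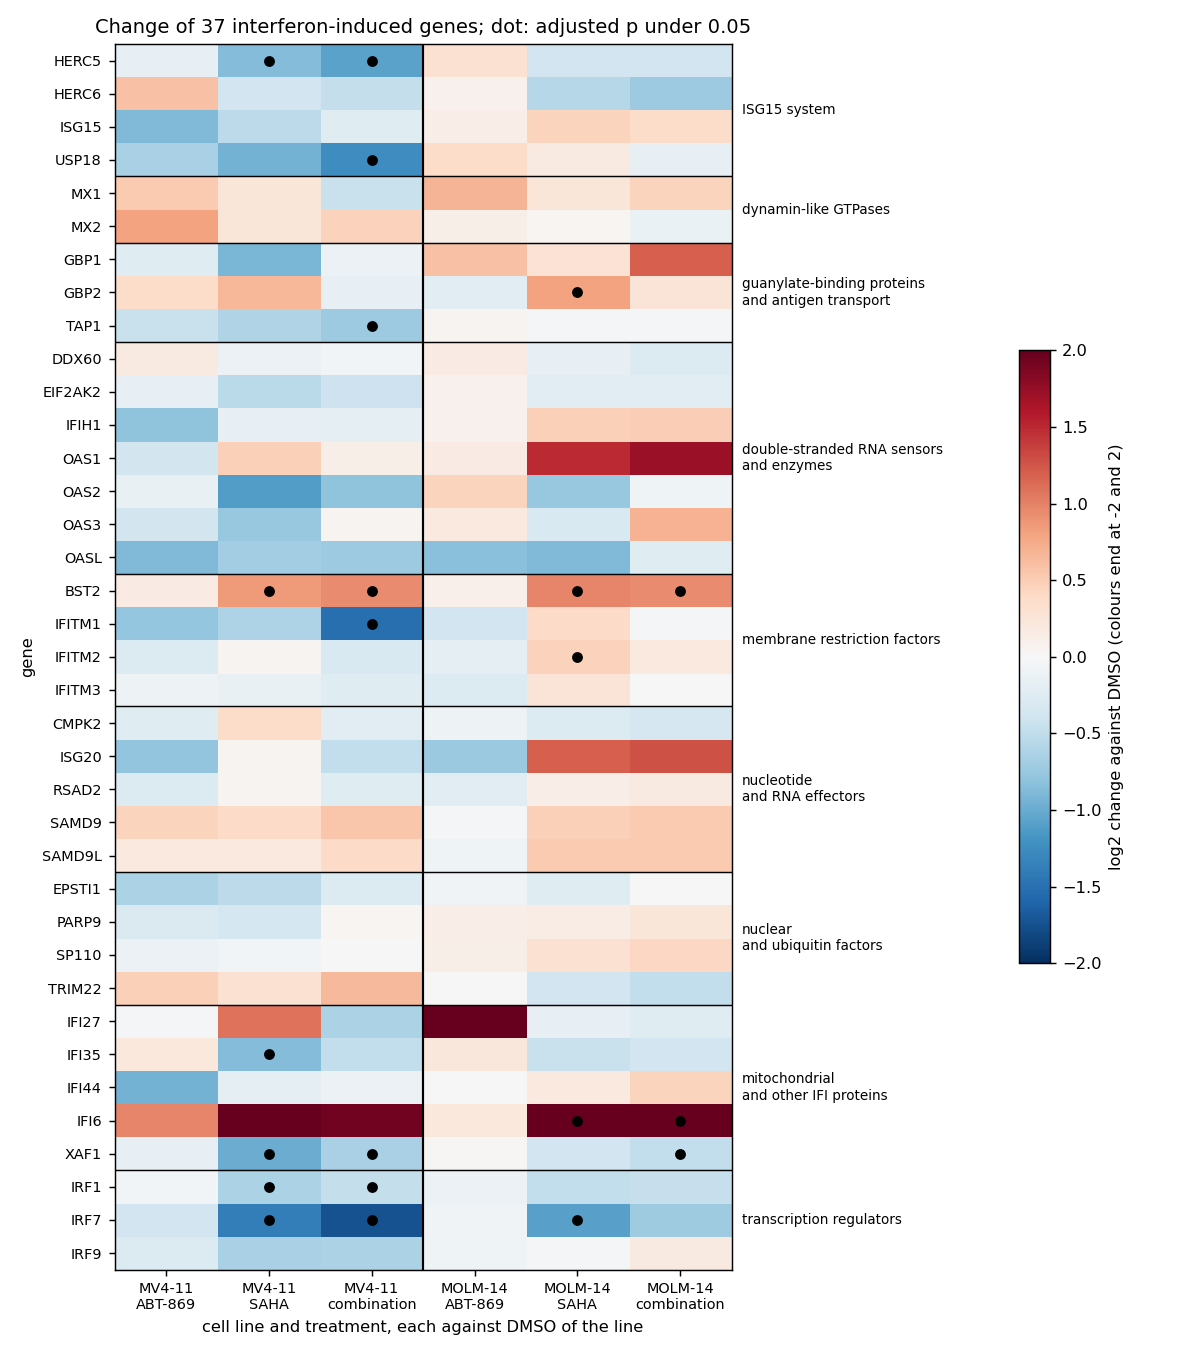
Log2 change against DMSO (colour) for 37 interferon-induced genes (rows, by role; IFI44L, dim in every group, is left out) in each line and treatment (columns), means of 3 arrays against 3; a dot marks an adjusted p under 0.05. BST2 carries a dot in 4 of the 6 columns and IRF7 in 3, and no dot lies in either ABT-869 column.

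Among the transcription regulators, IRF7, the factor that raises type I interferon production, fell most. In MV4-11 its signals were 873.9, 824.8 and 905.1 with DMSO, 693.4, 690.5 and 621.2 with ABT-869, 324.6, 317.9 and 352.2 with SAHA, and 231.7, 231.8 and 324.4 with the combination. All SAHA and combination arrays lay below every DMSO and ABT-869 array. The log2 change was −1.39 ± 0.151 (SE, adjusted p = 0.0034) with SAHA and −1.74 ± 0.151 (adjusted p = 0.00038) with the combination, and −0.38 ± 0.151 (adjusted p = 0.318) with ABT-869. In MOLM-14 its signals were 618.2, 705.5 and 659.9 with DMSO, 468.7, 721.8 and 743.1 with ABT-869, 307.7, 311.6 and 310.4 with SAHA, and 425.8, 354.0 and 433.3 with the combination. The SAHA arrays were again below every DMSO array, with a change of −1.09 ± 0.18 (adjusted p = 0.0135). The combination arrays were below the DMSO arrays too, by a smaller amount that missed the threshold (−0.71 ± 0.18, adjusted p = 0.0516). The SAHA call in MOLM-14 was lost, at values of −1.10 to −1.04, without DMSO replicate 2, SAHA replicate 2 or SAHA replicate 3. No single array ended the MV4-11 calls.

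IRF1, which activates both interferon genes and antigen presentation genes, fell less. In MV4-11 it read 909.6, 980.0 and 969.3 with DMSO, 659.5, 556.6 and 619.0 with SAHA, and 686.9, 663.4 and 705.8 with the combination. These groups did not overlap, and the changes were −0.64 ± 0.114 (adjusted p = 0.0233) and −0.48 ± 0.114 (adjusted p = 0.0327). In MOLM-14 it read 734.3, 860.2 and 899.3 with DMSO, 540.4, 647.0 and 583.1 with SAHA, and 615.8, 664.9 and 532.4 with the combination, and the changes (−0.49 and −0.46) were not called. A dimmer IRF1 probe set gave −0.53 and −0.45 in MV4-11 and was not called. The SAHA call was lost without any 1 of the DMSO or SAHA arrays, at −0.70 to −0.58. The combination call was lost without any DMSO or combination array, ABT-869 replicate 1 or SAHA replicate 3, at −0.51 to −0.45. IRF9, the DNA-binding partner of the STAT proteins, was not called in any comparison and changed by −0.65 ± 0.236 with SAHA and −0.63 ± 0.236 with the combination in MV4-11, and by −0.04 and 0.18 in MOLM-14.

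The ISG15 system attaches the small modifier ISG15 to proteins and removes it. Of its 4 members, 2 were called lower with the combination in MV4-11, where 5.82% of all genes were. None was called in MOLM-14 in a comparison with DMSO. No more than 4.72% of all genes were called in either direction there, so the absence of calls among 4 genes cannot be read as a trait of this role. HERC5, the ligase that attaches ISG15, read 493.1, 402.8 and 418.3 with DMSO in MV4-11, 398.6, 429.2 and 340.0 with ABT-869, 247.2, 200.5 and 276.7 with SAHA, and 170.4, 219.1 and 239.9 with the combination. All 6 arrays that received SAHA lay below the DMSO and ABT-869 arrays, and the changes were −0.87 ± 0.184 (adjusted p = 0.0454) and −1.07 ± 0.184 (adjusted p = 0.00788). In MOLM-14 it read 445.0, 491.4 and 443.0 with DMSO, 639.0, 540.1 and 532.1 with ABT-869, 359.1, 362.4 and 338.7 with SAHA, and 379.4, 321.0 and 355.2 with the combination. Its changes against DMSO there (−0.38 and −0.39) were not called. The call with SAHA in MV4-11 was lost without any array of the line other than combination replicates 1 and 3, at −0.97 to −0.74, and the combination call held without each array.

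USP18, the protease that removes ISG15 and also restrains signalling at the type I receptor, fell with the combination in MV4-11. It read 300.4, 340.6 and 344.9 with DMSO, 208.4, 276.3 and 159.8 with ABT-869, 207.7, 179.0 and 130.7 with SAHA, and 129.9, 192.0 and 107.4 with the combination. Every treated array lay below the DMSO arrays, and the change passed the test only with the combination (−1.24 ± 0.275, adjusted p = 0.024). In MOLM-14 it read 193.0, 253.1 and 205.9 with DMSO and 196.7, 255.9 and 144.4 with the combination, which overlapped (−0.16 ± 0.22). The MV4-11 call was lost without any DMSO array, combination replicate 1 or combination replicate 3, at −1.47 to −1.05. ISG15 itself and HERC6 were not called, and ISG15 changed by −0.88 ± 0.206 with ABT-869 in MV4-11 (adjusted p = 0.102).

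Among the membrane restriction factors, BST2 (tetherin, which holds budding virus at the cell surface) was the only member called higher in both lines. In MV4-11 it read 1119.7, 945.5 and 1149.6 with DMSO, 1251.0, 1209.1 and 1125.0 with ABT-869, 2095.1, 1729.2 and 1985.1 with SAHA, and 2005.6, 2077.5 and 2074.8 with the combination. MOLM-14 signals were 1250.1, 1513.6 and 1548.5, then 1708.0, 1549.7 and 1349.7, then 2950.3, 2775.4 and 2722.0, then 3055.6, 2863.7 and 2397.8 in the same order of treatments. All 12 arrays that received SAHA, alone or in the combination, were above every array of the same line that did not. The SAHA change was 0.85 ± 0.127 (adjusted p = 0.0122) in MV4-11 and 0.98 ± 0.145 (adjusted p = 0.0101) in MOLM-14. The combination change was 0.94 ± 0.127 (adjusted p = 0.00265) and 0.95 ± 0.145 (adjusted p = 0.00811), which is 1.92-fold and 1.93-fold. The combination change differed between the lines by 0.00 (95% interval −0.37 to 0.38). The SAHA call in MV4-11 was lost without DMSO replicate 2 (0.77) or SAHA replicate 1 (0.80), and the others held without each array.

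The IFITM proteins block the entry of enveloped viruses. Their genes are related paralogs, and how alike their sequences are was not computed here. The probe sets of IFITM1 (ending in _s_at), IFITM2 and IFITM3 (ending in _x_at) are of kinds that can bind several transcripts. Signals may therefore be shared between these genes. IFITM1 fell in MV4-11. It read 1874.4, 1927.6 and 1991.5 with DMSO, 1050.6, 1365.1 and 1007.0 with ABT-869, 1264.9, 1281.9 and 1211.0 with SAHA, and 582.0, 725.0 and 735.3 with the combination. The combination arrays lay below all others and both single treatments below DMSO. The changes were −0.77 ± 0.151 (adjusted p = 0.0573) with ABT-869, −0.62 ± 0.151 (adjusted p = 0.0702) with SAHA and −1.51 ± 0.151 (adjusted p = 0.000715, 2.85-fold) with the combination. The MOLM-14 arrays read 1116.4, 1174.6 and 1356.5 with DMSO, 771.9, 921.3 and 1116.8 with ABT-869, 1293.0, 1756.4 and 1772.2 with SAHA, and 1158.7, 1181.8 and 1190.2 with the combination, and no change was called. The combination call in MV4-11 held without each array.

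IFITM2 read 5424.3, 5400.3 and 4979.4 with DMSO in MOLM-14 and 7438.7, 6897.2 and 7454.0 with SAHA, which did not overlap (0.46 ± 0.109, adjusted p = 0.0428). The combination arrays read 5744.9, 6283.6 and 6022.5, a change of 0.19 that was not called. The IFITM2 call was lost without any array of the line other than ABT-869 replicate 1, at 0.42 to 0.50. In MV4-11 it read 6029.9, 6134.7 and 5948.3 with DMSO and 6260.7, 6046.9 and 6545.0 with SAHA, which overlapped. IFITM3 was not called in any comparison, with changes against DMSO between −0.28 and 0.26.

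**Figure D2:**
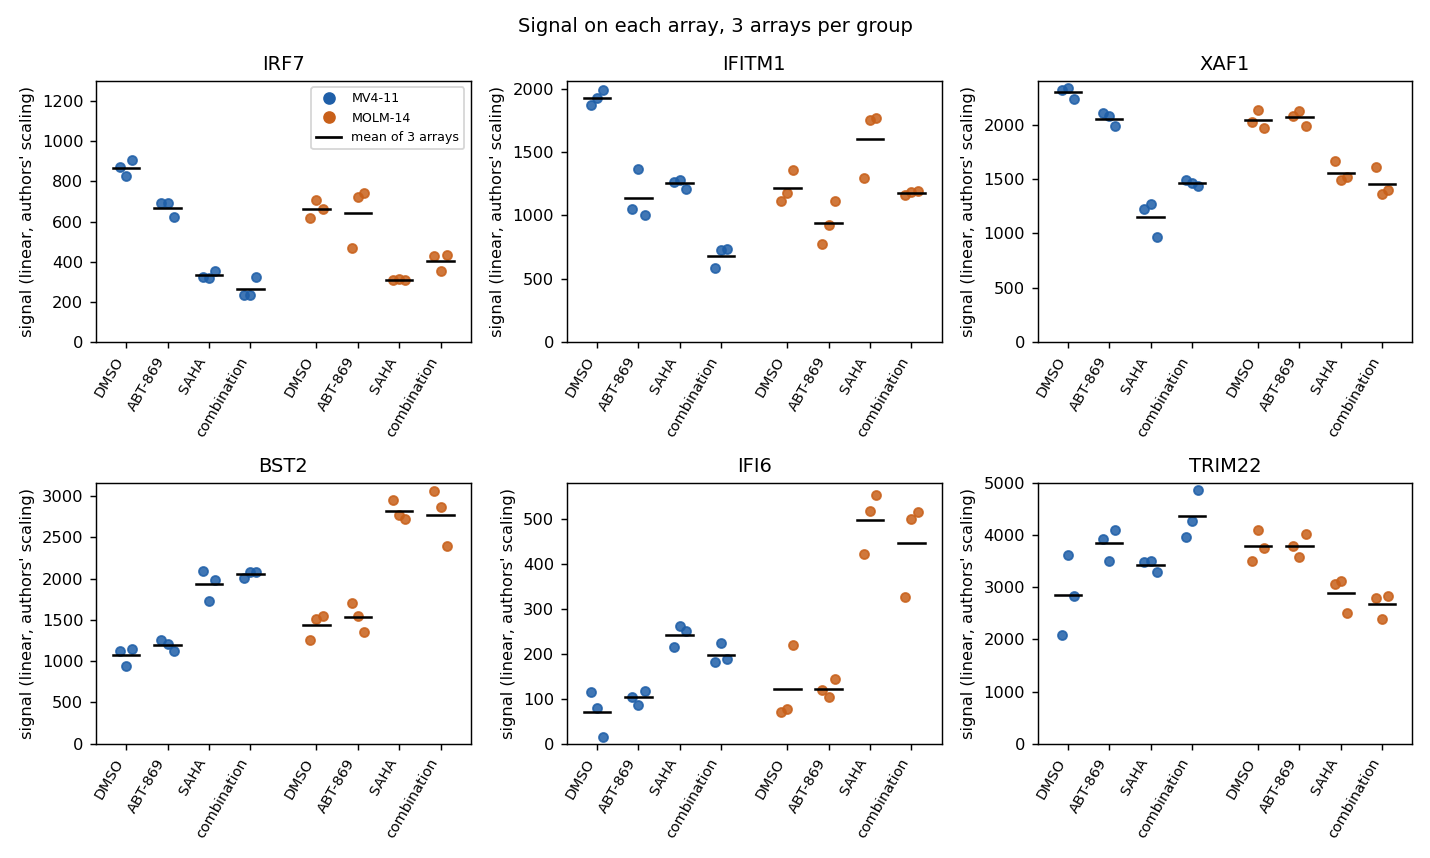
Linear signal (vertical axis, from 0) on each of the 24 arrays for IRF7, IFITM1, XAF1, BST2, IFI6 and TRIM22, with the mean of 3 arrays as a bar, MV4-11 in blue and MOLM-14 in orange. IRF7 is lower and BST2 higher wherever SAHA was given, and IFITM1 is lowest with the combination in MV4-11, at 582.0 to 735.3.

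IFI6, a mitochondrial and endoplasmic reticulum protein that restrains cell death, was the member with the largest change that passed the test. For MOLM-14 the signals were 69.3, 76.1 and 219.6 with DMSO, 120.1, 104.1 and 143.1 with ABT-869, 420.9, 517.8 and 553.0 with SAHA, and 325.6, 498.9 and 515.3 with the combination. DMSO replicate 3 stood apart from the other DMSO arrays, and all 6 arrays with SAHA were above it. The change was 2.23 ± 0.405 (adjusted p = 0.0176, 4.70-fold) with SAHA and 2.06 ± 0.405 (adjusted p = 0.0199) with the combination. Without DMSO replicate 3 the SAHA change was 2.77. Both calls were lost without DMSO replicate 1 or 2, and without replicate 2 or 3 of the treated group, at 1.93 to 2.20 with SAHA and 1.76 to 1.96 with the combination. The MV4-11 arrays read 115.0, 78.8 and 15.4 with DMSO, 214.7, 260.6 and 249.4 with SAHA, and 182.0, 223.3 and 188.5 with the combination. The groups did not overlap there either, but the DMSO arrays were spread widely, and the changes of 2.21 ± 0.602 (adjusted p = 0.10) and 1.93 ± 0.602 (adjusted p = 0.0849) were not called.

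XAF1, which binds the apoptosis inhibitor XIAP, fell. MV4-11 signals were 2323.2, 2333.9 and 2236.1 with DMSO, 2104.0, 2079.6 and 1986.4 with ABT-869, 1225.1, 1266.3 and 970.5 with SAHA, and 1495.1, 1465.8 and 1431.2 with the combination. The SAHA arrays were the lowest of the line, and the change was −1.0 ± 0.126 (adjusted p = 0.00574) with SAHA and −0.65 ± 0.126 (adjusted p = 0.0132) with the combination. MOLM-14 cells gave 2022.6, 2134.5 and 1968.8 with DMSO, 2084.1, 2125.1 and 1990.3 with ABT-869, 1662.0, 1493.5 and 1523.0 with SAHA, and 1607.1, 1361.5 and 1402.1 with the combination. Arrays with SAHA were below those without it, by −0.39 ± 0.107 (adjusted p = 0.0714) with SAHA and −0.49 ± 0.107 (adjusted p = 0.0301) with the combination. Both other probe sets of XAF1 also read lower, by −1.0 and −0.94 with SAHA in MV4-11. The MV4-11 combination call was lost without DMSO replicate 2 (−0.64), and the MOLM-14 call without any DMSO array, SAHA replicate 2 or 3, or combination replicate 2 or 3, at −0.56 to −0.44. IFI35, an adaptor of the interferon response, read 478.4, 463.9 and 489.5 with DMSO in MV4-11, 245.1, 230.7 and 314.2 with SAHA, and 308.3, 348.4 and 364.1 with the combination. Neither treated group reached the DMSO arrays, with −0.87 ± 0.159 (adjusted p = 0.0258) for SAHA and −0.49 ± 0.159 (adjusted p = 0.0949) for the combination. The SAHA call was lost without any DMSO array, SAHA replicate 1 or SAHA replicate 2, at −1.0 to −0.78. MOLM-14 signals were 599.1, 599.4 and 515.9 with DMSO, 500.3, 346.1 and 433.0 with SAHA, and 427.4, 459.9 and 426.2 with the combination, and neither change was called.

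GBP2, a guanylate-binding protein of the host defence, read 601.2, 503.1 and 615.6 with DMSO in MOLM-14 and 932.3, 1066.8 and 1007.1 with SAHA. The change was 0.81 ± 0.151 (adjusted p = 0.0194), and its other probe set gave 1.06 (adjusted p = 0.0266). With the combination it read 637.1, 617.3 and 789.3, all above the DMSO arrays but by less (0.25 ± 0.151, adjusted p = 0.451). The MV4-11 arrays read 521.1, 551.0 and 514.5 with DMSO, 867.0, 805.0 and 829.2 with SAHA, and 428.9, 464.7 and 518.9 with the combination, where neither change was called (0.66 ± 0.236 and −0.17 ± 0.236). The call was lost without DMSO replicate 1 or 2, or SAHA replicate 2 or 3, at 0.72 to 0.86. TAP1, which carries peptides for antigen presentation, fell with the combination in MV4-11. It read 764.2, 799.8 and 829.3 with DMSO, 606.8, 578.0 and 565.3 with ABT-869, 482.2, 488.7 and 614.8 with SAHA, and 426.9, 561.1 and 462.4 with the combination. Every treated array was below the DMSO arrays, and the change was −0.73 ± 0.146 (adjusted p = 0.0152). That call was lost without DMSO replicate 2 (−0.73), DMSO replicate 3 (−0.70) or combination replicate 1 (−0.65). The MOLM-14 arrays read 585.2, 519.7 and 631.0 with DMSO and 472.5, 615.3 and 613.5 with the combination, with a change of −0.04.

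The other roles held no call against DMSO. No more than 7.10% of all genes were called in either direction in any of these comparisons. The absence of calls in such small sets can therefore not be read as a trait of these roles. Of the 7 sensors and enzymes of double-stranded RNA, none was called in any comparison with DMSO, and their changes ran from −1.12 (OAS2, SAHA in MV4-11) to 1.73 (OAS1, combination in MOLM-14). OAS1, which makes the messenger that activates RNase L, is named after its values were seen. It read 38.9, 69.2 and 150.8 with DMSO in MOLM-14 and 254.0, 260.6 and 222.8 with the combination (1.73 ± 0.451, adjusted p = 0.0578). The 5 nucleotide and RNA effectors changed by −0.79 to 1.27 and the 4 nuclear and ubiquitin factors by −0.63 to 0.65. The dynamin-like GTPases MX1 and MX2 changed by −0.44 to 0.80. GBP1 and IFI27 were below 32, the level taken as dim, on 17 and 13 of the 24 arrays, and IFI44L was dim in every group. No direction is given for these genes.

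The change with the combination was more negative, or less positive, in MV4-11 than in MOLM-14 for 31 of the 38 members. The 38 include the dim GBP1, IFI27 and IFI44L, and the share of all genes on that side was not counted. The difference in response and the difference between the lines with DMSO use the same DMSO arrays with opposite sign, so they are not independent. With DMSO, 25 of the 38 members read lower in MOLM-14 (median difference −0.20). The median difference between the lines (MOLM-14 minus MV4-11) was 0.42 for the members, and 0.04 both for all probe sets and for genes. The difference itself passed the test for 3 members, 2 more positive in MOLM-14 and 1 more negative, against 3.14% and 3.41% of all probe sets. Of all genes, 4.88% were more positive and 5.63% more negative, beside 5.26% and 2.63% of members, so the members' count was not above that of genes in general. IFITM1 differed by 1.47 ± 0.221 (95% interval 1.0 to 1.93, adjusted p = 0.000526) and IRF7 by 1.03 ± 0.226 (0.55 to 1.51, adjusted p = 0.009). TRIM22, a ubiquitin ligase with antiviral activity, differed by −1.15 ± 0.225 (−1.63 to −0.68, adjusted p = 0.00393). These 3 calls held without each of the 24 arrays. Quantile normalization left 4 more positive and 1 more negative.

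The TRIM22 signal lay on opposite sides of DMSO in the lines. MV4-11 signals were 2080.3, 3626.8 and 2827.0 with DMSO, 3934.8, 3507.8 and 4108.5 with ABT-869, 3487.9, 3512.6 and 3298.9 with SAHA, and 3968.1, 4264.6 and 4869.2 with the combination. For MOLM-14 the signals were 3511.9, 4092.9 and 3754.1, then 3790.6, 3573.8 and 4030.9, then 3063.1, 3115.4 and 2507.6, then 2788.9, 2387.9 and 2837.7 in the same order. The combination arrays were above every DMSO array in MV4-11 and below every DMSO array in MOLM-14. Within a line the change missed the threshold, at 0.65 ± 0.194 (adjusted p = 0.0726) and −0.50 ± 0.131 (adjusted p = 0.0576).

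With SAHA alone the response differed between the lines for 2 members, both more positive in MOLM-14, against 0.599% of all probe sets more positive and 0.630% more negative, and 1.02% and 1.04% of genes. IFITM1 differed by 1.02 ± 0.221 (adjusted p = 0.0300) and XAF1 by 0.61 ± 0.145 (adjusted p = 0.0474). The XAF1 difference was not shared by its other probe sets (0.41 and −0.33), and it was lost without any array other than MV4-11 combination replicate 3 and MOLM-14 combination replicate 1, at 0.49 to 0.69. The IFITM1 difference was lost without any DMSO or SAHA array of MV4-11, or without MOLM-14 DMSO replicate 1 or 2 or SAHA replicate 2 or 3, at 0.94 to 1.17. The members' median difference with SAHA was 0.33, beside −0.08 over all probe sets and −0.04 over genes. With ABT-869 no difference was called by limma, against 0.194% and 0.157% of all probe sets and 0.293% and 0.253% of genes. At an unadjusted limma p under 0.05, 5 members were more positive (ISG15, USP18, HERC5, TAP1 and IFIH1) and none more negative. The share of all genes at that unadjusted level was not computed here either.

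**Figure D3:**
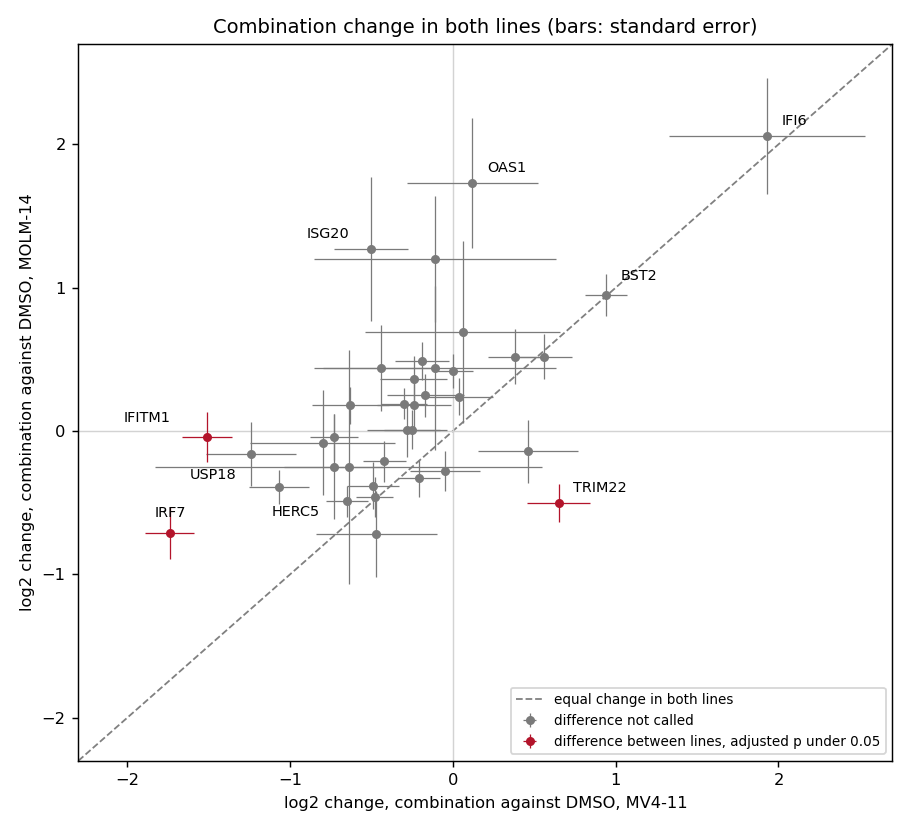
Log2 change with the combination against DMSO in MV4-11 (horizontal) and MOLM-14 (vertical) for 37 genes, with standard errors as bars; red marks genes whose change differs between the lines at an adjusted p under 0.05. IFITM1 (−1.51 and −0.04), IRF7 (−1.74 and −0.71) and TRIM22 (0.65 and −0.50) lie off the dashed line of equal change, and BST2 (0.94 and 0.95) lies on it.

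With DMSO alone, 3 members were higher in MOLM-14 and 3 lower, against 4.96% of all probe sets higher and 5.18% lower. The members' share of 7.89% each way was near that of all genes, 8.19% higher and 6.51% lower. The median of all probe sets was lower by 0.15 in MOLM-14 (log2 difference −0.15). With each array centred on its median 5 members were higher and none lower, and the share of all genes was not computed there. SAMD9, a regulator of growth and translation, read 480.9, 597.6 and 494.7 in MV4-11 against 867.7, 761.7 and 927.0 in MOLM-14 (0.70 ± 0.158, adjusted p = 0.00805), and its dimmer probe set gave 0.25. CMPK2, a mitochondrial nucleotide kinase, read 652.7, 752.1 and 771.8 against 929.8, 1048.0 and 1216.0 (0.55 ± 0.118, adjusted p = 0.00578). Both were separated without overlap, and both calls held without each array. BST2 differed by 0.42 ± 0.126 (adjusted p = 0.0398).

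IFITM1 was lower in MOLM-14 with DMSO, by −0.67 ± 0.156 (adjusted p = 0.00979). IFIH1, the sensor MDA5 for long double-stranded RNA, read 388.6, 453.4 and 341.8 in MV4-11 against 276.6, 230.9 and 280.4 in MOLM-14 (−0.58 ± 0.142, adjusted p = 0.0133), but its dimmer probe sets gave −0.05 and 0.08. TAP1 differed by −0.47 ± 0.144 (adjusted p = 0.0481). Centring on the medians left these 3 at −0.41, −0.32 and −0.21, none called. The IFIH1 call was lost without MV4-11 DMSO replicate 2 (−0.48) or MOLM-14 DMSO replicate 2 (−0.49). The TAP1 call was lost without any of 19 of the 24 arrays, at −0.53 to −0.39, and held only without MV4-11 SAHA replicate 3, MV4-11 combination replicate 1 or 2, MOLM-14 SAHA replicate 2 or MOLM-14 combination replicate 1. The BST2 call was lost without any MV4-11 DMSO array, MOLM-14 DMSO replicate 2 or 3, or MOLM-14 SAHA replicate 2 or 3, at 0.33 to 0.52.

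**Figure D4:**
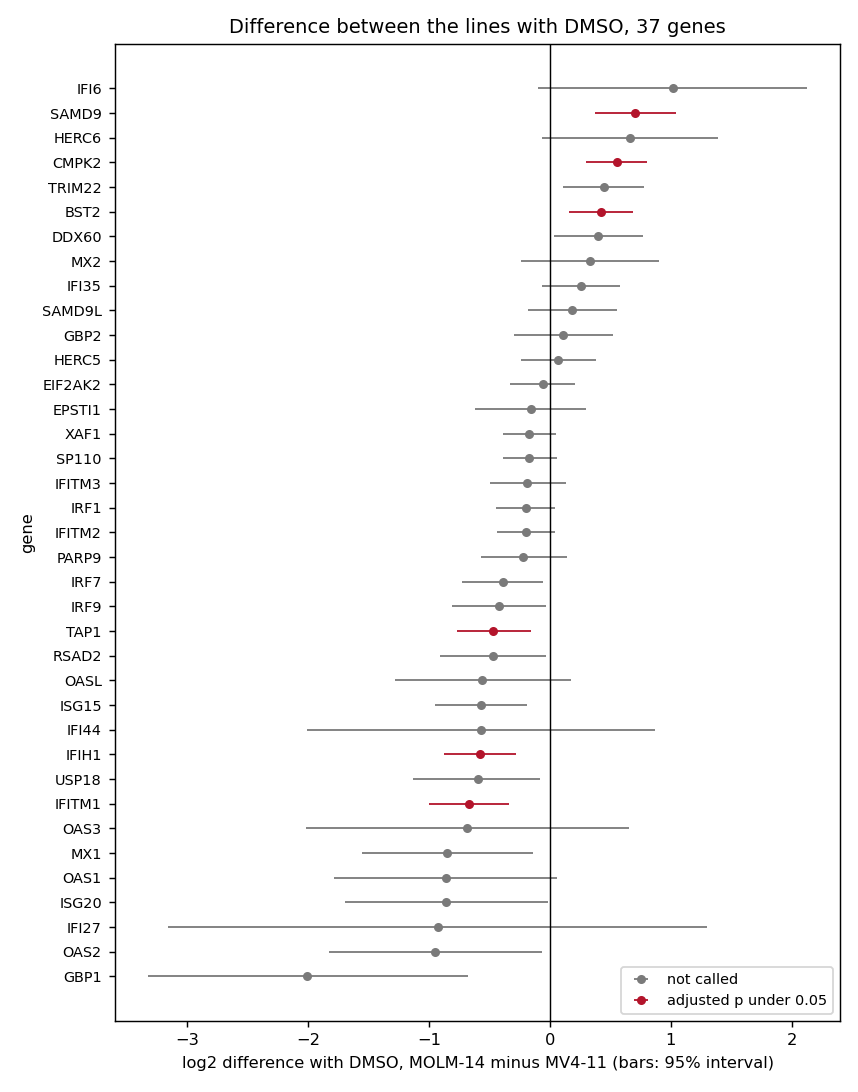
Log2 difference in signal with DMSO, MOLM-14 minus MV4-11, for 37 genes in order of the difference, with 95% intervals as bars and the 6 called genes in red. SAMD9, CMPK2 and BST2 lie above 0 and IFITM1, IFIH1 and TAP1 below it, while wide intervals belong to dim genes such as GBP1 and IFI27.

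The combination was also compared with each single agent. Against ABT-869 in MV4-11, 1 member was higher and 4 lower (BST2 higher by 0.78, and IRF7, HERC5, IFITM1 and IFI35 lower by −1.36, −0.90, −0.74 and −0.70), against 1.89% and 1.81% of all probe sets and 3.14% and 2.90% of genes. Centring left 1 higher and 1 lower there, and quantile normalization 1 higher and 2 lower. Against ABT-869 in MOLM-14, 3 were higher (ISG20 by 2.01, IFI6 by 1.85 and BST2 by 0.85) and 3 lower (HERC5 by −0.70, XAF1 by −0.51 and TRIM22 by −0.51), against 4.48% and 3.54% of all probe sets and 6.52% and 5.48% of genes, and quantile normalization left 3 higher and 5 lower. ISG20, an RNA exonuclease, read 62.7, 109.3 and 20.7 with ABT-869 and 204.1, 204.8 and 221.5 with the combination. Against SAHA in MV4-11, IFITM1 alone was called, lower by −0.89 (0 higher and 1 lower, against 0.183% and 0.566% of all probe sets and 0.263% and 1.0% of genes). Against SAHA in MOLM-14 no member was called by limma (0.00916% and 0.00549% of all probe sets, and 0% of genes either way). At an unadjusted limma p under 0.05 none was higher and 3 were lower, with no share of all genes computed at that level. Leaving out 1 array ended many of the calls of the combination against a single agent. Against ABT-869 in MV4-11, IFITM1 was lost without any of the 12 arrays (−0.82 to −0.60), IFI35 without any but SAHA replicate 3 (−0.81 to −0.60), and BST2 without ABT-869 replicate 3 (0.74). HERC5 there held only without DMSO replicate 1, SAHA replicate 2 or 3, or combination replicate 3 (−1.0 to −0.76). IFITM1 against SAHA was lost without any array but ABT-869 replicate 2 (−0.95 to −0.78). In MOLM-14, ISG20 was lost without any array but ABT-869 replicate 2 or 3 (1.34 to 2.54) and TRIM22 without any but SAHA replicate 3 (−0.56 to −0.43). XAF1 was lost without ABT-869 replicate 1 or 2 or combination replicate 2 or 3 (−0.58 to −0.46), and IFI6 without any ABT-869 array or combination replicate 2 or 3 (1.73 to 2.06). The IRF7 call in MV4-11 and the HERC5 and BST2 calls in MOLM-14 held without each array.

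Of the other genes of the interferon pathway, 39 were analysed (ligands, receptors, kinases and STATs, other IRFs, sensors with their adaptors, and inhibitors). With the combination, 4 were higher and 2 lower in MV4-11 (10.3% and 5.13%, beside 7.10% and 5.82% of all genes), and 2 higher and 2 lower in MOLM-14 (5.13% each, beside 4.72% and 4.18%). These shares were near those of all genes. With SAHA none was called in MV4-11, and 2 were higher and 1 lower in MOLM-14 (5.13% and 2.56%, beside 4.20% and 3.62%). With ABT-869, 1 was higher and 1 lower in MV4-11 (2.56% each, beside 0.516% and 0.779% of all genes). None was called in MOLM-14, beside 0.00506% and 0.0152% of all genes. With DMSO alone, 1 was higher in MOLM-14 (MAVS) and 5 lower (IFNGR2, JAK1, STAT3, IRF2 and PTPN6), which is 2.56% and 12.8% beside 8.19% and 6.51% of all genes.

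Among ligands, IFNW1 was called higher with the combination in MOLM-14 (2.14 ± 0.413, adjusted p = 0.0183), but it read 6.0, 8.7 and 7.8 with DMSO and 23.3, 36.1 and 41.7 with the combination against a dim level of 32. Among receptors, IFNAR1, a chain of the type I receptor, rose by 0.78 ± 0.131 with the combination in MV4-11 (353.5, 442.4 and 445.3 with DMSO, and 753.2, 684.3 and 680.7 with the combination). IFNGR1, the ligand-binding chain for interferon gamma, rose by 0.62 ± 0.111 in MOLM-14 with SAHA and by the same amount with the combination (4264.2, 3996.6 and 4983.8 with DMSO, and 6680.8, 7156.6 and 6490.9 with SAHA). Among the sensors and adaptors, MAVS (0.53), TRAF3 (0.83) and the kinase IKBKE (0.88) rose and the DNA sensor CGAS (−0.66) fell with the combination in MV4-11. CGAS fell with the combination in MOLM-14 as well (−0.63), and the DNA sensor TLR9 rose by 1.15 with ABT-869 in MV4-11.

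SOCS1, the feedback inhibitor of JAK kinases, fell in MV4-11 and read 1092.2, 1319.9 and 1220.0 with DMSO, 557.4, 575.8 and 503.5 with ABT-869, 1459.4, 1467.1 and 1151.7 with SAHA, and 345.5, 376.0 and 341.3 with the combination. The change was −1.15 ± 0.140 (adjusted p = 0.00969) with ABT-869 and −1.77 ± 0.140 (adjusted p = 0.000278) with the combination. MOLM-14 cells gave 949.2, 1289.5 and 1059.9 with DMSO, 532.2, 497.0 and 647.6 with ABT-869, 1814.0, 2383.0 and 2024.2 with SAHA, and 921.8, 833.8 and 900.6 with the combination. There it rose with SAHA (0.92 ± 0.164, adjusted p = 0.0168), and the ABT-869 change of −0.97 was not called (adjusted p = 0.168) although the groups did not overlap. The combination change of SOCS1 differed between the lines by 1.47 ± 0.204 (adjusted p = 0.000277). IRF8, a myeloid member of the IRF family, fell with SAHA and with the combination in MOLM-14 (−0.78 ± 0.110 each), and both responses were more negative there than in MV4-11 (differences of −0.65, adjusted p = 0.0244, and −0.60, adjusted p = 0.0105).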

How the data were processed

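RNA of 24 cultures was hybridised to Affymetrix U133 Plus 2.0 arrays. The authors deposited 1 linear intensity per probe set, with every array scaled to the same mean after 2% of values were trimmed at each end, and no source read here names the software that made the signals. Intensities under 1 (0.209% of values) were raised to 1 and log2 transformed, and 62 control probe sets were left out, which left 54613. Treatments were tested in limma 3.58.1 (R 4.3.3) with lmFit and eBayes over the 12 arrays of a line, and differences between lines over all 24 arrays, two-sided, with Benjamini-Hochberg adjustment over all probe sets. The number of arrays limits the precision. Probe sets were named from the platform annotation, of which 41091 carried 1 gene, 1801 several and 11721 none. Promoters came from RefSeq (GRCh38.p14). The members and gene lists were chosen with earlier results of these data known. Values by array were given for members called against DMSO, members whose response differed between the lines and the 6 largest called differences between the lines with DMSO. Of the pathway genes called against DMSO, IFNW1, IFNAR1, IFNGR1 and SOCS1 were given by array for some or all groups. The rest of those pathway genes were given by log2 change. Apart from OAS1 and ISG20, the other members were given by ranges, counts or changes. Alternatives were other scalings, floors and filters, limma-trend, a replicate block, the mean of probe sets, other samples in the fit and leaving out each array. The fits were tested on simulated data. Same-numbered arrays did not deviate together (correlations −0.04 to 0.081), so the numbers were not used as pairs.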

Additional observations from a re-analysis of the deposited data

Results flagged for a closer look

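For 4 genes the response itself differed between MV4-11 and MOLM-14 when tested, given as MOLM-14 minus MV4-11 on the log2 scale with limma's adjusted p. For IFITM1 the response differed by 1.02 with SAHA (adjusted p = 0.0300) and by 1.47 with the combination (adjusted p = 0.000526). For XAF1 the SAHA response differed by 0.61 (adjusted p = 0.0474), a difference that its other probe sets, at 0.41 and −0.33, did not share. For TRIM22 the combination response differed by −1.15 (adjusted p = 0.00393), and for IRF7 by 1.03 (adjusted p = 0.00900).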

How the results depend on the processing

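No called change of a member reversed direction under any alternative run. Of 45 calls, all 45 remained with a floor of 32, without dim probe sets and with limma-trend, 40 with quantile normalization and with the mean of all probe sets of a gene, 33 with the replicate block, 30 with arrays centred on their medians, 30 without 4 arrays that stood apart, a choice made after seeing the data that took the highest array over 0.3 in each group and so kept MV4-11 combination replicate 2 (0.306), and 5 with only the groups compared in the fit. In 1 fit over all arrays 34 of 34 remained. The causes were not tested. Dim signals limit GBP1, IFI27 and IFI44L.

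The number of members called moved as follows. Only members were counted in these settings, and no share of all genes was computed. A move can therefore not be read as particular to the members. With ABT-869 against DMSO in MV4-11 (0 calls) it was 1 with quantile normalization, with the mean of probe sets and without the arrays that stood apart, 3 with a floor of 32, limma-trend and 1 fit, and 4 without dim probe sets. With SAHA in MV4-11 (6 calls) it was 3 when centred and with the replicate block, 11 with the floor and limma-trend, 12 without dim probe sets and in 1 fit, and 1 with only the groups compared. With the combination in MV4-11 (8 calls) it was 4 when centred, 13 with the floor, without dim probe sets and with limma-trend, 14 in 1 fit, 2 with only the groups compared and 5 without the arrays that stood apart. For the combination against ABT-869 in MV4-11 (5 calls) it was 3 with quantile normalization, 2 when centred and with the replicate block, 8 with the floor, 9 without dim probe sets, with limma-trend and in 1 fit, 0 with only the groups compared and 1 without the arrays that stood apart. For the combination against SAHA in MV4-11 (1 call) it was 0 when centred, with the replicate block and with only the groups compared, 2 with the floor and the mean of probe sets, and 3 without dim probe sets, with limma-trend and in 1 fit.

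In MOLM-14, ABT-869 (0 calls) gave 1 with the floor. SAHA (5 calls) gave 11 when centred, 10 with the floor, 12 without dim probe sets and with limma-trend, 8 in 1 fit and 0 with only the groups compared. The combination (3 calls) gave 5 when centred, 11 with the floor, without dim probe sets and with limma-trend, 7 with the mean of probe sets, 8 in 1 fit and 0 with only the groups compared. The combination against ABT-869 (6 calls) gave 14 with the floor, 16 without dim probe sets, 15 with limma-trend, 12 with the mean of probe sets and in 1 fit, and 1 with only the groups compared. The DMSO level (6 calls) gave 0 with only the groups compared. The difference in response to ABT-869 (0 calls) gave 1 with quantile normalization and 2 with the floor, without dim probe sets and with limma-trend. That to SAHA (2 calls) gave 4 with the floor, 5 without dim probe sets and with limma-trend, 0 with only the groups compared and 1 without the arrays that stood apart. That to the combination (3 calls) gave 5 with quantile normalization, with the replicate block and without the arrays that stood apart, 9 with the floor and limma-trend, 11 without dim probe sets and 6 with the mean of probe sets.

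Leaving out 1 array gave 0 to 1 calls with ABT-869, 2 to 6 with SAHA, 5 to 8 with the combination, 1 to 4 for the combination against ABT-869 and 0 to 1 against SAHA in MV4-11. In MOLM-14 it gave 0, 1 to 5, 1 to 5, 2 to 6 and 0 in the same order. It gave 3 to 6 for the DMSO level, and 0, 0 to 2 and 3 to 6 for the differences in response to ABT-869, SAHA and the combination.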
